A study of Rattus norvegicus with 10 samples.

Results

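The 10 genes examined here carry fatty acids into the mitochondrion, break them down by beta-oxidation, use ketone bodies, or uncouple respiration. They are defined by gene name, a rule that uses no measured value, but they were picked with earlier results of these data known. They are 10 of the 14217 named genes of the array and are read by 15 probe sets, a probe set being a group of short probes against 1 transcript. The rats were outbred Wistar males, and the RNA was taken from the brain, from the hypothalamus area according to the study's methods, a region that regulates food intake. The calorie-restricted (CR) groups received 5, 10, 20 or 30% less food than the measured daily intake for 1 week, and the control group received the full intake of the same purified diet. All rats were 6 weeks old at the start and were fasted for 16 h before sampling, the controls included. RNA of 5 rats was pooled for each group and measured on 1 Affymetrix array, so that no group had a second array and the spread between rats cannot be seen. The study asked how mild and short restriction alters gene expression.

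Fatty acyl-CoA cannot cross the inner mitochondrial membrane. Carnitine palmitoyltransferase 1 (*Cpt1a*) loads the acyl chain onto carnitine, and carnitine palmitoyltransferase 2 (*Cpt2*) returns it to coenzyme A inside. Acyl-CoA dehydrogenases for very long (*Acadvl*), long (*Acadl*) and medium chains (*Acadm*) open each round of beta-oxidation, and the trifunctional protein (*Hadha* and *Hadhb*) carries out the later steps on long chains. In a fasting animal the liver turns much of the acetyl-CoA into ketone bodies, which the brain oxidises through *Bdh1*, *Oxct1* and *Acat1*. Fatty acid oxidation in brain is known mainly from astrocytes. *Ucp2*, an uncoupling protein of the inner mitochondrial membrane, has been studied in hypothalamic neurons as a factor in their response to fasting.

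Several technical measures set the control array apart, and each comparison of CR with control rests on this array. Signals under 10 made up 11.7 to 14.4% of values on the CR arrays and 24.0% on the control array. The log2 ratio of 3' to 5' signal for GAPDH, which moves with RNA integrity and with labelling, was 0.40 to 0.79 on the CR arrays and 0.19 on the control array. The median log2 signal of 12 probe sets for bacterial transcripts added to the RNA was 4.87 to 5.36 on the CR arrays and 6.10 on the control array. Log2 signals of the control array correlated with those of the CR arrays at 0.852 to 0.874, while pairs of CR arrays gave 0.912 to 0.922. These correlations run over probe sets, and probe sets are no replicates. Their part in the results was not tested. The hypothalamic peptide genes were bright, with *Pmch* at 8130 to 8942 on the CR arrays and 7157 on the control array and *Avp* at 2847 to 3996 on the CR arrays and 3722 on the control array, while *Pomc* was dim (4.9 to 14.8 in CR and 2.6 in the control). The 1 month arrays were not used, because their rows correlated with the 1 week rows at only 0.036 to 0.052.

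At 1 week, *Ucp2* and *Cpt1a* were higher in CR than in control, *Acadm* and *Acat1* were lower, and the ketone-using enzyme *Oxct1* lay between -0.15 and 0.07 log2 units of control at every level. Signals are MAS5 values on a linear scale, compared as log2 differences, and a difference was called at an adjusted p under 0.05 by limma over all 15521 probe sets tested. Of the 15 member probe sets, 12 passed the filter on dim signals, and they stand for 9 of the 10 genes by the brightest probe set. Of these 12, 2 were higher and 2 lower in CR. Of all probe sets tested, 14.5% were called higher and 11.0% lower, 25.5% in all. Taken as 1 brightest probe set per gene, the members called were 4 of 9, and 22.9% of all named genes were called that way. No test set the members' share against these. The median log2 difference was -0.14 over the 12 member probe sets and 0.03 over all probe sets tested. All 4 CR arrays lay above control, by however little, in 3 of the 12 and below it in 5, and the same held for 37.1 and 33.1% of all probe sets (33.3 and 35.9% of named genes by their brightest probe set). With 1 control array, the fit assumes that this array varies as the CR arrays do.

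**Figure D1:**
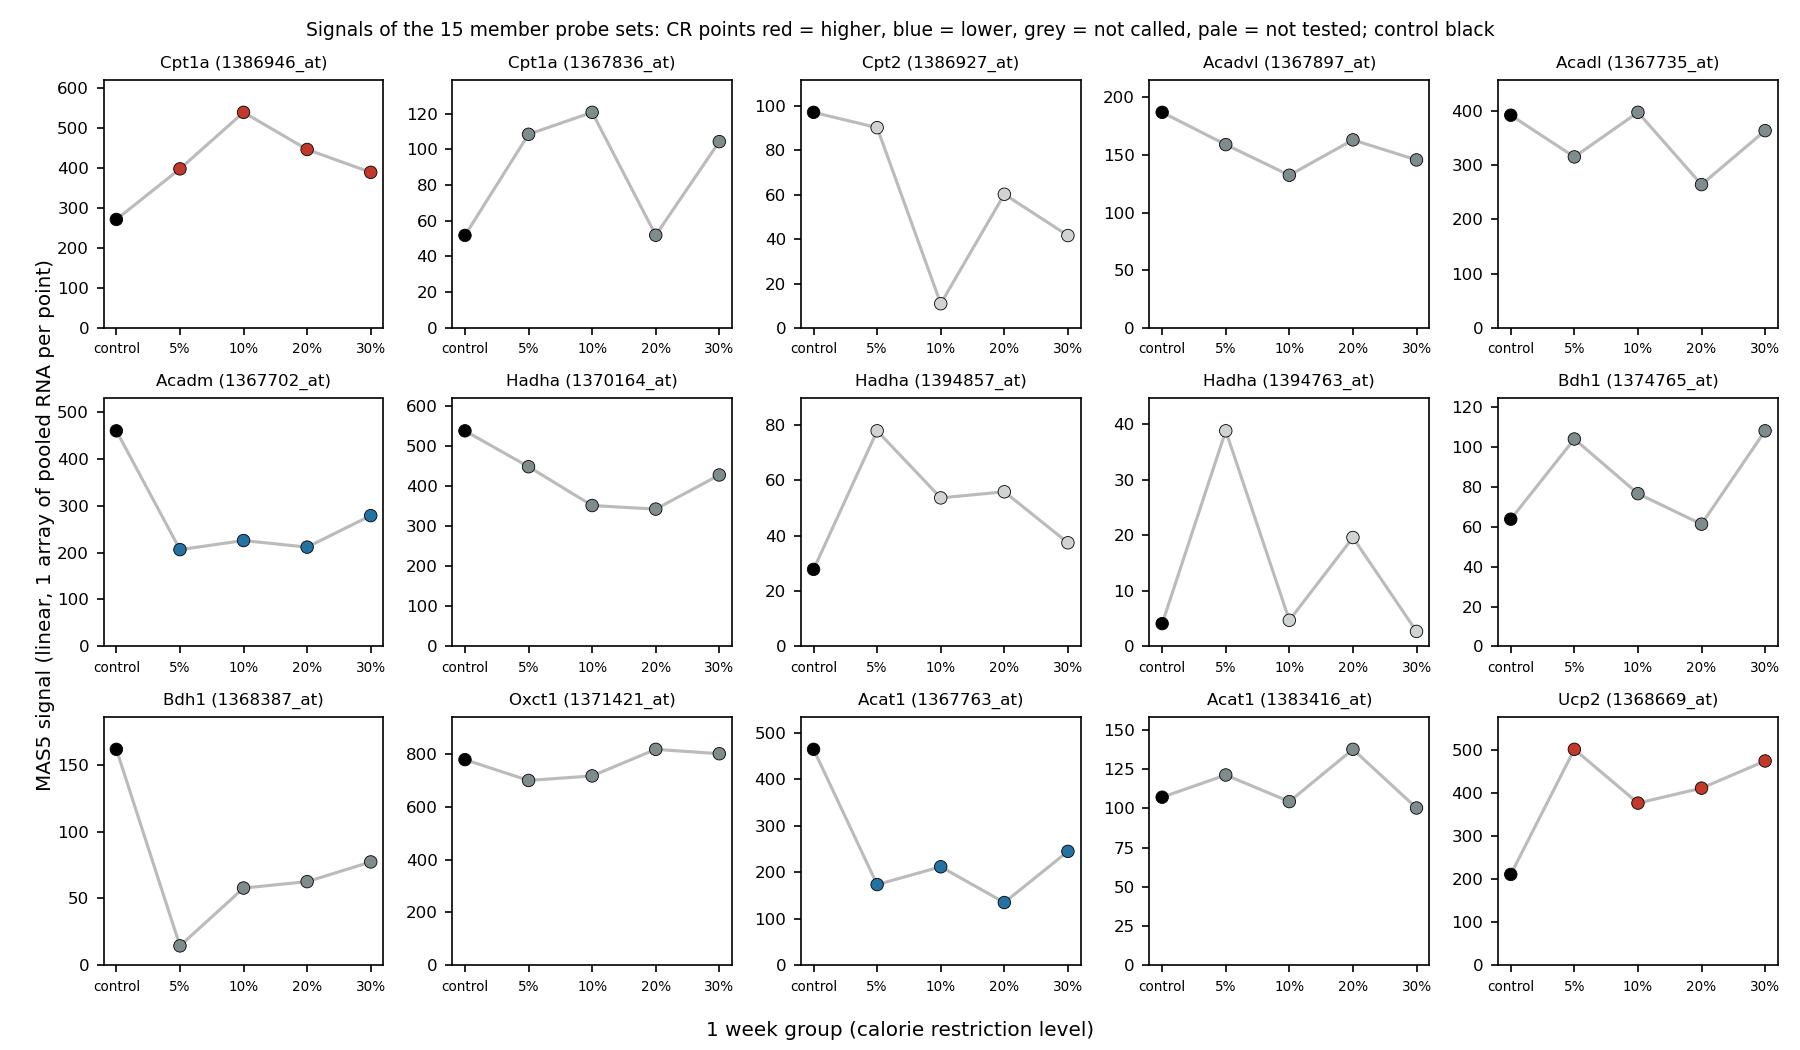
MAS5 signal (y axis, linear, from 0) of the 15 member probe sets on the 1 week arrays (x axis, control and 4 CR levels), with 1 array of pooled RNA per point and lines only to guide the eye. *Ucp2* lies at 376.8 to 502 on the CR arrays and 210.7 on the control array, and *Acat1* (1367763_at) at 134.5 to 244.8 on the CR arrays and 464.8 on the control array.

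*Cpt1a*, the rate-limiting enzyme of the carnitine shuttle in liver, had signals of 397.7, 539, 446.1 and 389 at 5, 10, 20 and 30% CR, against 271.2 in the control (1386946_at). All 4 CR arrays lay above the control array, and the 10% array was the highest. The log2 difference was 0.70 ± 0.22 (SD, n = 4 CR levels), with a 95% interval of 0.26 to 1.13 and an adjusted p of 0.0273 by limma. A second, dimmer *Cpt1a* probe set (1367836_at) gave 108.4, 120.7, 51.9 and 104.3 in CR, against 51.8 in the control. The 20% array was level with the control there, higher by only 0.0028 log2 units, and the other 3 were at least 2.01 times it, and the difference of 0.82 was not called (adjusted p = 0.217). Without the 20% array it was 1.10 and was called (adjusted p = 0.0334). *Cpt2* gave 90.2, 10.9, 60.2 and 41.6 in CR, against 97.1 in the control. All 4 CR values were below control, but they ranged between 0.112 and 0.929 times it, and the probe set fell just under the filter, at percentile 47.5 of mean signal. Without a filter its difference of -1.29 had an interval of -3.38 to 0.79 (adjusted p = 0.357).

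The call of *Cpt1a* was lost when each array was centred on its median (log2 difference 0.26, adjusted p = 0.323) and without the intensity trend in the fit (0.70, adjusted p = 0.0848). The reference sequence upstream of *Cpt1a* is shown here, as are those of the other members with a call, from RefSeq on the GRCr8 assembly. Each window runs from 250 bases before to 50 bases after the gene's start, with capitals for 5 short motifs on either strand. They are GGGCGG (the GC box), CCAAT (the CCAAT box), AGGTCA (the core letters of sites for nuclear receptors), TCAAGGTCA (the longer form for estrogen-related receptors) and CACGTG (an E-box). The *Cpt1a* window held none of the 5.
Cpt1a promoter, chr1:209995910-209996209, plus strand: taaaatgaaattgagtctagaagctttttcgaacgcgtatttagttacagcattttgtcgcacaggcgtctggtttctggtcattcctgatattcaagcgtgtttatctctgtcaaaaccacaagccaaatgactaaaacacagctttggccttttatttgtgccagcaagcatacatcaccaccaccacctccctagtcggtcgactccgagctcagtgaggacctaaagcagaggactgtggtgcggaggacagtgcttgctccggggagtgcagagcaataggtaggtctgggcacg

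Of the 3 acyl-CoA dehydrogenases, only *Acadm* was called. Its signals were 206.2, 225.5, 211.5 and 278.6 at 5, 10, 20 and 30% CR, against 459.2 in the control (1367702_at). All 4 CR arrays were well below control and close to each other. The log2 difference was -1.01 ± 0.20 (SD, n = 4), with a 95% interval of -1.47 to -0.55 and an adjusted p of 0.0068. *Acadvl* gave 159.1, 132.5, 163.2 and 145.8 in CR, against 187.1 in the control. These were also below control on all 4 arrays, but the difference of -0.32 had an interval of -0.82 to 0.18 (adjusted p = 0.323). *Acadl* gave 315.4, 397.6, 264.3 and 363.8 in CR, against 392.3 in the control. Its 10% array lay above control, and the difference of -0.24 had an interval of -0.73 to 0.25 (adjusted p = 0.451). The intervals of *Acadm* and *Acadvl* overlap, and the difference between the enzymes was not tested.

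The *Acadm* window held GGGCGG or its reverse complement 3 times, all close to the start of the gene, and none of the other motifs.
Acadm promoter, chr2:245542815-245543114, minus strand: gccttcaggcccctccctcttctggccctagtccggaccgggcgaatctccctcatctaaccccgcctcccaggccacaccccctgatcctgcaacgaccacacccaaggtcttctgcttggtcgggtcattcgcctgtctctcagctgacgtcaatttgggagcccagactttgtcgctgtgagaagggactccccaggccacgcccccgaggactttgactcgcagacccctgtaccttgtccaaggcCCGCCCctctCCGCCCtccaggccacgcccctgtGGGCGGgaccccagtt

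Both subunits of the trifunctional protein were below control on all 4 CR arrays, and only the beta subunit was called. *Hadha*, the alpha subunit, gave 448.6, 351.7, 342.8 and 428 in CR, against 538.2 in the control (1370164_at). The log2 difference of -0.46 ± 0.20 (SD, n = 4) had an interval of -0.88 to -0.05 and did not pass (adjusted p = 0.0959). All 4 CR arrays lay below the control array at 33.1% of all probe sets tested. *Hadhb*, which is no member and was named after its values were seen, gave 975.8, 935.7, 855.7 and 980.7 in CR, against 1641 in the control. Its difference was -0.81 and was called (adjusted p = 0.00176). The other *Hadha* probe sets were dim and fell under the filter. One (1394857_at) gave 77.8, 53.6, 55.8 and 37.4 in CR, against 27.8 in the control, and the other (1394763_at) gave 38.8, 4.7, 19.6 and 2.7 in CR, against 4.1 in the control. Both pointed the other way from the bright one on average, by 0.97 and 1.27 on the log2 scale, with intervals that included 0 when no filter was used.

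*Hadha* and *Hadhb* lie head to head on rat chromosome 6. The starts used for their reference windows are 301 bases apart, and the windows share 200 bases, shown in capitals in the *Hadha* window.
Hadha promoter, chr6:31907551-31907850, plus strand: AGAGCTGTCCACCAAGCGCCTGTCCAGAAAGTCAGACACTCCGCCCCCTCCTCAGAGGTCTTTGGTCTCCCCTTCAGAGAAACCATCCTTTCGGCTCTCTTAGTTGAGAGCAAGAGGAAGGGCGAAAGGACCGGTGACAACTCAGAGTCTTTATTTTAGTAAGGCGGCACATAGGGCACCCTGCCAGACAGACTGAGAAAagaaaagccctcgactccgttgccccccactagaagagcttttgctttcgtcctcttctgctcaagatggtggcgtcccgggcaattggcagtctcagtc

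Of the 3 enzymes of ketone use, only *Acat1* was called, by 1 of its 2 probe sets, and the enzymes were not tested against each other. *Bdh1*, which oxidises beta-hydroxybutyrate to acetoacetate, was read by 2 probe sets that disagreed. The brighter one (1374765_at) gave 104, 76.6, 61.3 and 108.1 at 5, 10, 20 and 30% CR, against 63.8 in the control, so that 3 CR arrays were above control and 1 just below it. Its log2 difference was 0.42, with an interval of -0.45 to 1.29 (adjusted p = 0.466). The other (1368387_at) gave 14.3, 57.7, 62.5 and 77.3 in CR, against 161.8 in the control. All 4 CR arrays were below control, the 5% array by far the most, and the difference of -1.86 ± 1.11 (SD, n = 4) did not pass (adjusted p = 0.112). Without the 5% array it was smaller, -1.31, and was called (adjusted p = 0.0265). No direction can be given for *Bdh1*.

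*Oxct1*, the transferase that commits acetoacetate to oxidation, gave 701, 718.3, 819.3 and 802.6 in CR, against 780.2 in the control. The 5 and 10% arrays were below control and the 20 and 30% arrays above it. The log2 difference was -0.04 ± 0.11 (SD, n = 4), and its interval of -0.35 to 0.27 leaves room for changes of that size (adjusted p = 0.859). Under median scaling it was lower (-0.48, adjusted p = 0.0308), and under quantile scaling the difference was 0.070.

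*Acat1*, the mitochondrial thiolase that splits acetoacetyl-CoA, had the largest decrease among the called members. Its brighter probe set (1367763_at) gave 173.2, 211.6, 134.5 and 244.8 in CR, against 464.8 in the control. All 4 CR arrays were at or under 0.527 times the control, the 20% array lowest. The log2 difference was -1.32 ± 0.37 (SD, n = 4), with an interval of -1.97 to -0.67 and an adjusted p of 0.00989. The second probe set (1383416_at) gave 121.4, 104.4, 137.8 and 100.3 in CR, against 107.2 in the control. These values straddled the control, and the difference of 0.10 (-0.34 under median and -0.025 under cyclic loess scaling) had an interval of -0.52 to 0.73, which does not overlap that of the first. The decrease thus belongs to 1 of the 2 *Acat1* probe sets. The *Acat1* window held GGGCGG and CCAAT in either orientation 2 times each.
Acat1 promoter, chr8:62904993-62905292, minus strand: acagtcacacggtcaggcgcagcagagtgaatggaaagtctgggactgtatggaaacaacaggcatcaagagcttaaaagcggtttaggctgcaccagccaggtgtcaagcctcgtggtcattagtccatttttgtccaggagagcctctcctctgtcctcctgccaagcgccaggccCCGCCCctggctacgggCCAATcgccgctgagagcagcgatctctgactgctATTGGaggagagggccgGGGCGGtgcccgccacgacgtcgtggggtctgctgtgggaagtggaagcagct

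*Ucp2* had the largest increase among the called members. Its signals were 502, 376.8, 411.6 and 474.9 at 5, 10, 20 and 30% CR, against 210.7 in the control (1368669_at). All 4 CR arrays were at least 1.79 times the control, the 5% array highest. The log2 difference was 1.06 ± 0.19 (SD, n = 4), with an interval of 0.64 to 1.47 and an adjusted p of 0.0034. *Ucp2* is also abundant in microglia. Of 8 microglial markers on the array, 5 were tested, and only *Tyrobp*, a signalling adaptor, was called, as higher (0.92). Without a call, *Aif1* was above control on all 4 CR arrays (0.44) and *C1qa* below it on all 4 (-0.43). *C1qa*, at 461.3 to 634 in CR and 712.2 in the control, was the brightest of the list. The summed signal of the 8 was 1852 to 1938 on the CR arrays and 1823 on the control array, none was at 0, and *Trem2* and *Itgam* were among the 3 too dim to test. *Tyrobp* lost its call under median scaling and without the intensity trend (adjusted p = 0.14 and 0.0689). The *Ucp2* window held none of the 5 motifs.
Ucp2 promoter, chr1:164251123-164251422, plus strand: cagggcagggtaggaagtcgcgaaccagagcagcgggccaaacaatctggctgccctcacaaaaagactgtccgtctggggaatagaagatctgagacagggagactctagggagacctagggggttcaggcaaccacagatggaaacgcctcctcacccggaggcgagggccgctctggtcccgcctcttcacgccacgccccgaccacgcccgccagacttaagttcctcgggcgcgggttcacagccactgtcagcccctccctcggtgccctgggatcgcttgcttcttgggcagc

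Among the 9 members with a reference window, GGGCGG was found in 6 (33.1% of all 33469 windows of this length), CCAAT in 2 (37.5%), AGGTCA in 1, *Acadvl* (16.2%), and TCAAGGTCA and CACGTG in none (0.433 and 6.42%). Each AGGTCA within TCAAGGTCA also counts as AGGTCA. These are matches of letters, and the members that were higher and lower in CR were too few to compare by them.

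**Figure D2:**
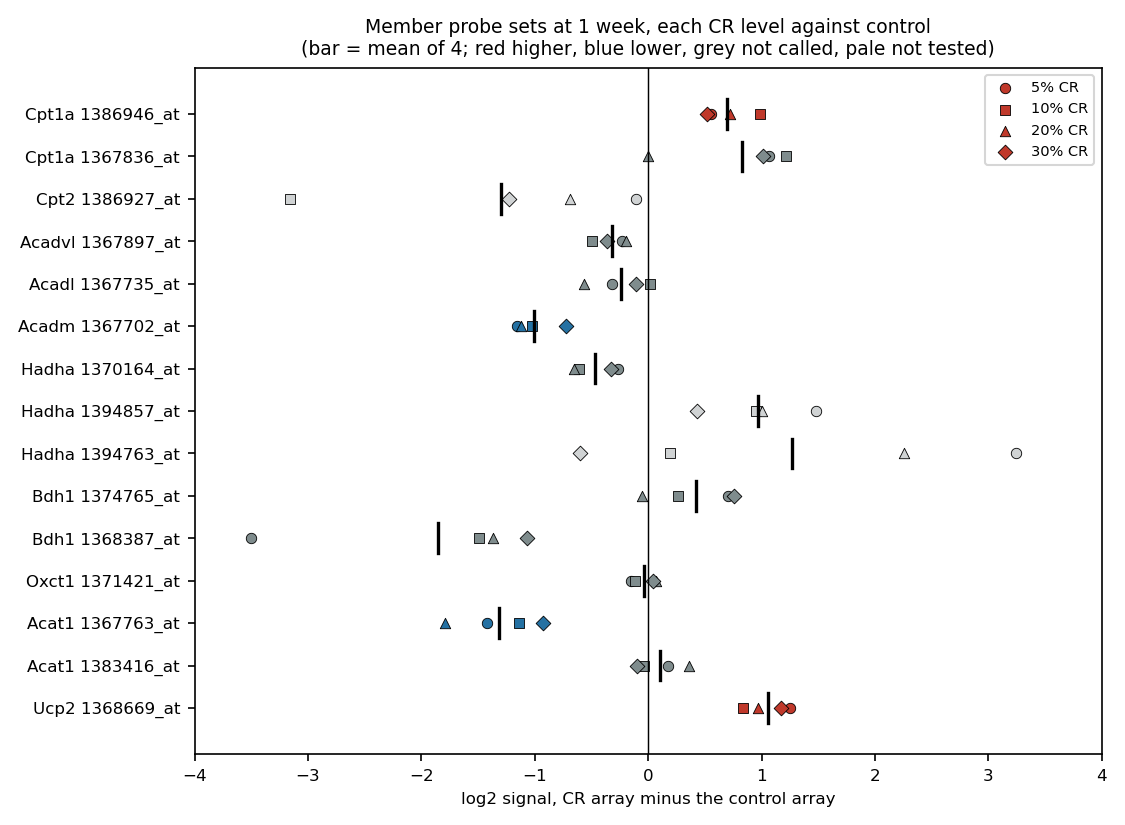
Log2 signal of each CR array minus the control array (x axis) for the 15 member probe sets, with 1 symbol per CR level and a bar at the mean of 4. All 4 symbols lie on 1 side of 0 for the called probe sets, and the 2 probe sets of *Bdh1* and of *Acat1* lie apart from each other.

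No slope across the CR levels passed the test, among the members or elsewhere. The slope of log2 signal over the 4 CR arrays, without the control array, passed at no probe set of the 15521 by limma, and 743 (4.79%) had an unadjusted p under 0.05. Of the 12 member probe sets, the dimmer *Bdh1* probe set was the only one with an unadjusted p under 0.05, at 0.78 log2 units per 10 percentage points of restriction (interval 0.05 to 1.52, adjusted p = 0.999). The called members had slopes of 0.01 for *Ucp2* (interval -0.19 to 0.21), 0.14 for *Acadm* (-0.07 to 0.35), 0.10 for *Acat1* (-0.23 to 0.43) and -0.07 for *Cpt1a* (-0.28 to 0.14). Set against the control array 1 level at a time, 2 or 3 of the 12 member probe sets were at least 1.5-fold higher and 3 or 4 at least 1.5-fold lower at each level. Among all probe sets tested, 20.7, 21.9, 22.6 and 19.5% were at least 1.5-fold higher at 5, 10, 20 and 30% CR, and 14.7, 16.6, 17.1 and 13.7% were lower. These 4 ratios share 1 control array.

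The other genes of mitochondrial beta-oxidation were more often lower than higher in CR. Of 16 tested, 6 were lower and none higher, and among all named genes, taken by their brightest probe set, 11.3% were lower and 11.6% higher. The median log2 difference was -0.47 over the 16 and -0.02 over all named genes, and 9 of the 16 had all 4 CR arrays below control (35.9% of all named genes). *Eci2*, which shifts double bonds of unsaturated acyl-CoA, had 314.5, 302.1, 264 and 326.8 in CR, against 586.9 in the control, a log2 difference of -0.96 (adjusted p = 0.00352). *Decr1*, the dienoyl-CoA reductase that serves unsaturated chains, had 227.8, 235.1, 210.1 and 272.8 in CR, against 431.6 in the control (-0.87, adjusted p = 0.00938). *Acaa2*, the thiolase that ends each round, had 298.5, 274, 272.5 and 237.2 in CR, against 483.6 in the control (-0.84, adjusted p = 0.00795). In all 3 genes the CR arrays lay close together and far from control.

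Electrons from the acyl-CoA dehydrogenases pass through the electron transfer flavoprotein, whose 2 subunits differed in their values. *Etfa* had 245.2, 246.2, 221.9 and 334.1 in CR, against 492.6 in the control, a log2 difference of -0.93 (adjusted p = 0.0144, or 0.055 without the intensity trend). *Etfb*, named after its values were seen, had 855.7, 815.8, 734.8 and 858.5 in CR, against 800.3 in the control, a difference of 0.03 (interval -0.27 to 0.32). *Hadhb* and *Acad9* (-0.62, adjusted p = 0.0412), which has both enzyme and complex I assembly roles, completed the 6. At an unadjusted p under 0.05 by limma, 8 were lower and 0 higher, against 18.5 and 17.5% of all named genes. *Acad10*, at 0.78 the largest positive value of the list, did not pass (adjusted p = 0.231). Left-out CR arrays moved the count of lower genes between 5 and 7, and the median between -0.43 and -0.57. Median scaling gave 9 lower genes and a median of -0.90, where all probe sets had -0.41, and without the intensity trend 4 genes were lower. The control array had the lowest GAPDH 3' to 5' ratio and the most low signals, as given above, and whether these bear on the list was not tested.

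Around this core, called genes pointed both ways. Of 11 uptake and activation genes tested, 3 were higher and 1 lower: the transporter *Slc27a4* (0.64), the fatty acid binding proteins *Fabp3* (0.57) and *Fabp5* (0.42, but -0.021 under median scaling), and the brain acyl-CoA synthetase *Acsl6* (-0.44). Among all named genes 11.6% were higher and 11.3% lower. The median of the 11 was -0.25, and 6 had all 4 CR arrays below control and 4 above it. At an unadjusted p under 0.05 by limma, 4 were lower and 3 higher. *Fabp7* (-0.56) and *Acsl3* (-0.47) narrowly missed the threshold (adjusted p = 0.055 and 0.0512). Of 5 further carnitine shuttle genes, *Crot*, the peroxisomal octanoyltransferase, was higher (0.54) and *Slc25a20*, the carrier that exchanges acylcarnitine for carnitine across the inner membrane, was lower (-0.90). The other *Crot* probe sets were too dim for the filter and pointed the other way on average. One had 33.7 to 59 in CR and 60.6 in the control (-0.38), the other 4.7 to 9.8 in CR and 8.4 in the control (-0.385). Several of the calls above lay near the threshold and were lost when 1 CR array was left out, which also takes away a degree of freedom. That of *Slc27a4* was lost without the 5, 10 or 30% array (adjusted p = 0.0668, 0.0556 and 0.0517), that of *Crot* without the same arrays (0.0877, 0.0825 and 0.052), that of *Acsl6* without the 5, 10 or 20% array (0.0701, 0.0706 and 0.0587), and that of *Slc25a20* without the 10 or 20% array (0.0687 and 0.073). *Slc25a20* had 176.7, 111.2, 117.4 and 161.8 in CR, against 259.7 in the control, with all 4 CR arrays below control. Median scaling also ended the calls of *Slc27a4* (0.20, adjusted p = 0.472), *Crot* (0.10, adjusted p = 0.698) and *Fabp3* (0.13, adjusted p = 0.535). Among 6 genes of peroxisomal beta-oxidation and 3 further uncoupling proteins limma called none, and 1 (peroxisomal) had an unadjusted p under 0.05. Their medians were -0.10 and -0.30. Of 6 further ketone body genes, *Slc16a6*, a monocarboxylate transporter, was higher (1.11, adjusted p = 0.021, or 0.0937 under median and 0.0754 under quantile scaling), and a second probe set of the gene, with 55.9, 81.4, 56.8 and 43.5 in CR against 77.6 in the control, was not called. *Slc16a1*, the main monocarboxylate transporter of the blood-brain barrier, had 427.6, 322.9, 295.1 and 321.6 in CR, against 369.2 in the control, and did not pass (-0.13, interval -0.59 to 0.34).

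**Figure D3:**
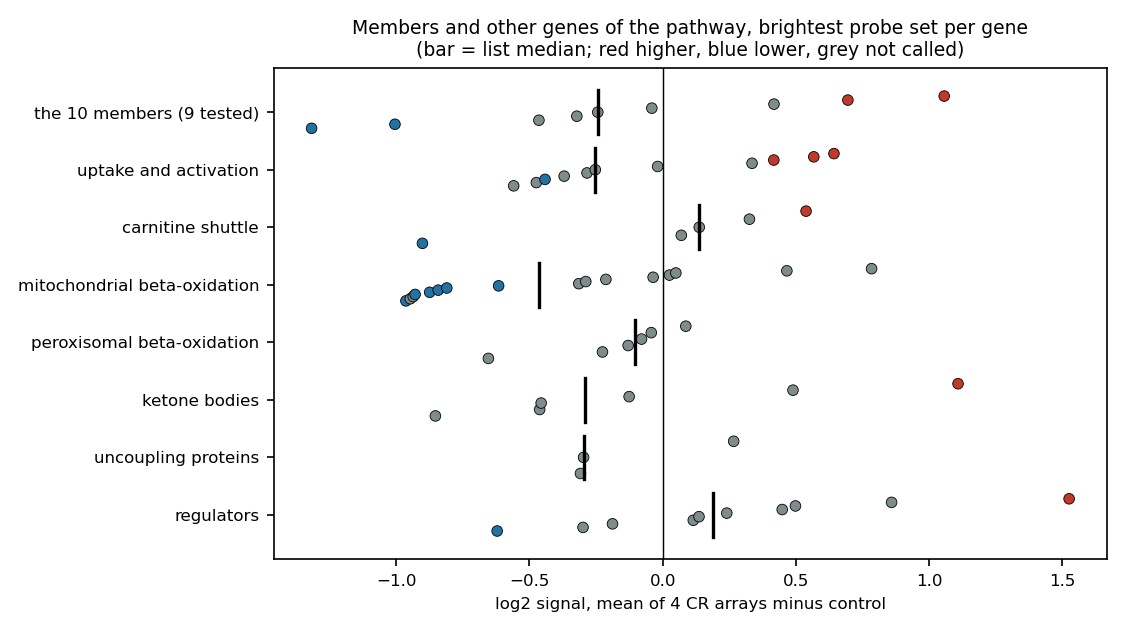
Log2 difference of the mean of 4 CR arrays minus control (x axis), 1 point per gene by its brightest probe set, for the members and 7 lists of other genes of the pathway, with a bar at each list's median. The mitochondrial beta-oxidation list has 6 lower and no higher genes and a median of -0.47.

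Among 10 regulators tested, *Ppard* was higher and *Sirt3* lower. *Ppard*, a fatty acid-activated nuclear receptor, had 232, 241.2, 219.2 and 229.9 in CR, against 80 in the control. The 4 CR arrays were almost level and far above control, and the difference was 1.53 ± 0.06 (SD, n = 4, adjusted p = 7.8e-04). A dim *Ppard* probe set under the filter was less even, with 13.6, 15.7, 73.3 and 29.4 in CR, against 10 in the control. *Sirt3*, the mitochondrial deacetylase, had 316.3, 288, 299.5 and 352.2 in CR, against 481.6 in the control (-0.62, adjusted p = 0.0242, or 0.0568 under quantile scaling). *Prkaa1* and *Prkaa2*, the catalytic subunits of AMP-activated protein kinase, had differences of 0.45 and 0.50 and did not pass (adjusted p = 0.0702 and 0.247). *Ppargc1a*, a coactivator of oxidative genes, had -0.30 and also did not pass (adjusted p = 0.471). Another *Ppargc1a* probe set had 100, 141.3, 103.2 and 136 in CR, against 173.8 in the control, and was not called (-0.55, adjusted p = 0.181). A dim one, under the filter, had 2.7 to 5.1 in CR and 12 in the control. *Ppara*, the receptor best known for inducing these enzymes in liver, was too dim to test, with 9.7 to 18.3 in CR and 1.4 in the control.

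The number of members called depended on the array scaling. Centring each array on its median lowered every difference by 0.44 log2 units and took the median of all probe sets tested to -0.41. The members then had 7 lower probe sets and 1 higher, and 32.6% of all probe sets were lower and 6.55% higher. Relative to that median, *Acat1* was at -1.35, *Acadm* at -1.03 and *Ucp2* at 1.03. A shift common to all probe sets cannot change these distances, so they are no check of the differences. Under quantile and cyclic loess scaling the members had 2 higher and 2 lower probe sets, as with the deposited scaling. Each alternative tried kept the same control array, so none can show how far a call depends on that array. *Acadm*, *Ucp2* and the brighter *Acat1* probe set were called in the same direction under all 12 alternatives tried, with adjusted p of at most 0.0314, 0.0318 and 0.0465.

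**Figure D4:**
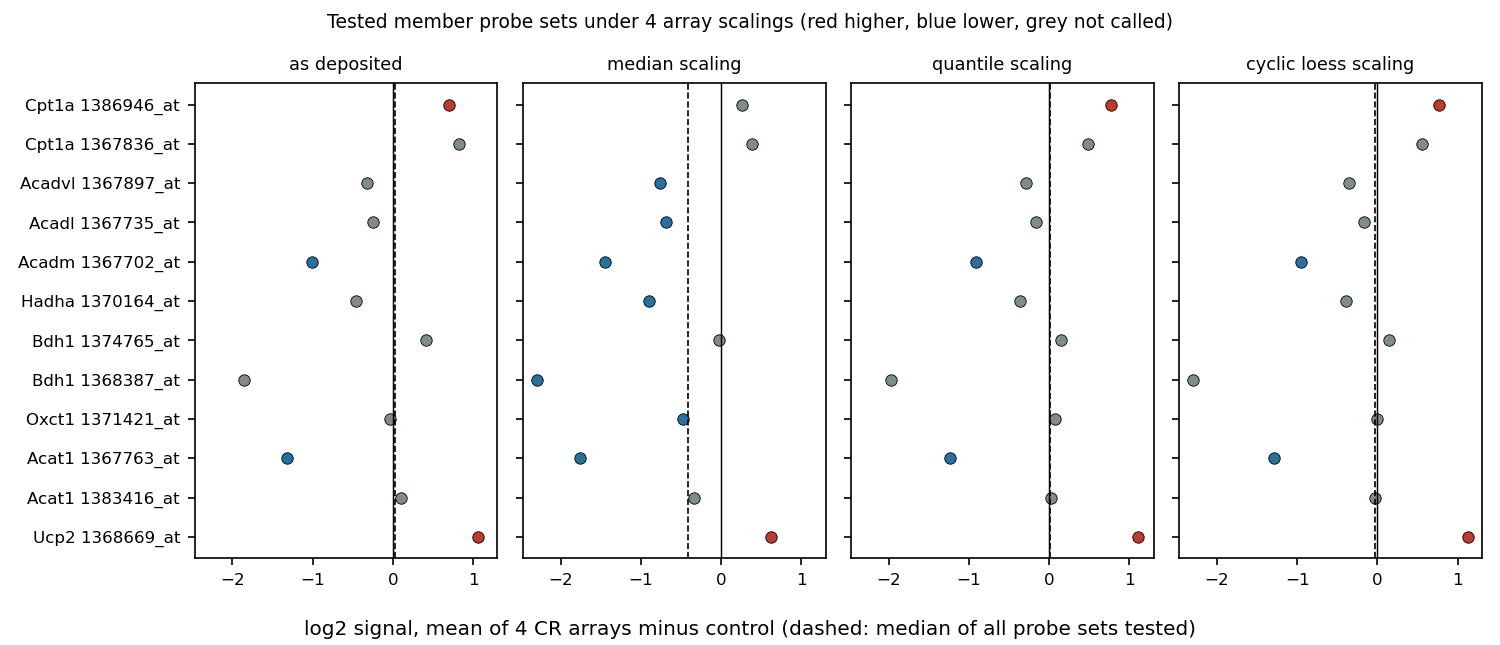
Log2 difference of the mean of 4 CR arrays minus control (x axis) for the 12 tested member probe sets under 4 array scalings, with the median of all probe sets tested as a dashed line. That median is 0.03 as deposited and -0.41 under median scaling, and *Acadm*, *Acat1* (1367763_at) and *Ucp2* are called in all 4 panels.

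Some markers of cell types also differed between CR and control, in both directions. Of 7 astrocyte markers on the array, 6 were tested, of which *Aldh1l1*, a folate enzyme, was lower (-0.89, adjusted p = 0.0577 without the intensity trend) and the gap junction gene *Gja1* higher (0.40, but -0.041 under median scaling), and the summed signal was 17197 to 18303 on the CR arrays and 16698 on the control array. Of 6 endothelial markers, the tight junction gene *Cldn5* (-1.36) and the transporter *Slco1c1* (-0.86) were lower, the second not called without the 5 or 20% array (adjusted p = 0.0513 and 0.0564), with summed signals of 856.8 to 1066 in CR and 1476 in the control. The endothelial adhesion gene *Pecam1* went the other way without a call, at 59.5 to 122.1 in CR and 32.9 in the control (1.28, adjusted p = 0.0605), as did the receptor gene *Flt1* (0.68, adjusted p = 0.308). Of 6 oligodendrocyte markers, *Mog* (-1.35) and *Mal* (-1.26) were lower, with summed signals of 19763 to 21456 in CR and 21257 in the control. Of 6 neuronal markers tested, *Eno2* was higher (0.38, but -0.056 under median scaling) and *Tubb3* lower (-0.64), with summed signals of 13120 to 14309 in CR and 14196 in the control. All 3 tested pituitary markers were higher, with *Tshb* (2.26) and *Lhb* (1.61, adjusted p = 0.0734 under quantile scaling) the largest, and the 7 on the array summed to 2049 to 2861 in CR and 990.3 in the control. *Ttr*, of the choroid plexus, was higher (1.93), with sums of 282.3 to 385.6 in CR and 161.7 in the control. The control signals of *Tshb*, *Lhb* and *Ttr* were 43.3, 33.6 and 35.5, and a dim gene passes the filter more easily when higher in CR. The share called higher among the tested markers of these 2 lists is therefore not free of the filter. The remaining pituitary marker called, *Cga*, was bright, at 1714 to 2333 in CR and 877.4 in the control (1.18). It made up most of the pituitary sum, and was also called with no filter (adjusted p = 0.0014 by limma). Of the ependyma and tanycyte markers *Vim* was lower (-0.59, adjusted p = 0.053 without the intensity trend), at 1053 to 1165 in CR and 1659 in the control, and made up most of their sum of 1259 to 1406 in CR and 1786 in the control. The other 4 had positive differences without a call. They were 0.13 for *Foxj1* and 0.61 for *Rax*, and 1.98 for *Crb2* and 3.56 for *Dio2*, which were too dim for the filter (adjusted p = 0.0498 and 0.0512 with none). Among hypothalamic peptides *Npy* was higher (1.25) and *Trh* lower (-1.09), with sums of 18551 to 20762 in CR and 17756 in the control. Both blood markers tested missed the threshold, and they summed to 5369 to 8031 in CR and 5156 in the control. No listed marker was at 0. Fewer cells of a type and less RNA per cell cannot be told apart in such samples, and the part of these markers in the members' differences was not tested.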

How the data were processed

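The authors deposited signal intensity from MAS5, not log-transformed, for 1 Affymetrix rat genome array per pool of 5 rats. The submitters' processing notes name MAS5, and its scaling target is not given in the sources used here. MAS5 subtracts mismatch signal, so dim probe sets are noisy, and detection calls were not used here. The number of arrays limits the precision.

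The 10 genes and the lists were chosen with earlier results of these data known. The platform annotation gave 1 gene symbol to 20832 of 31099 probe sets, more than 1 to 436, and none to 9831. Signals were taken as log2, after 4 values of 0 were set to 0.1, and 57 control probe sets were left out. The brighter 50% of probe sets by mean log2 signal over the 5 arrays were kept; a dim gene passes more easily when it is higher in CR. The 4 CR arrays were set against the control array with lmFit and eBayes of limma 3.58.1 with an intensity trend in R 4.3.3, Benjamini-Hochberg adjustment and 3 residual degrees of freedom (2 for the slope over CR level). CR levels are not replicates of a dose, and p-values measure the spread between pools. The fits were tested on simulated data in which the control array was given the spread of the CR arrays. That simulation cannot test whether the real control array varies as they do. Python 3.11.15, pandas 2.3.3, numpy 2.4.6 and matplotlib 3.10.9 were used for the rest. A gene was represented by its brightest probe set, and of each pathway list up to 4 called genes per direction (of each marker list up to 2), largest change first, were named. Others were named after their values were seen. The alternatives tried were array scaling to the median or by quantiles, no filter or one at the 75th percentile, a pseudocount of 13.7, no intensity trend, a robust fit, each CR array left out, the mean of a gene's probe sets, the control as 0% in the slope, and 2-fold in place of 1.5-fold. Cyclic loess scaling was added after the data were seen. Sequences are from RefSeq (GRCr8).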

Additional observations from a re-analysis of the deposited data

How the results depend on the processing

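Of 139 checks of the 12 member probe sets, 126 kept direction and side of the threshold, 2 lost the call, 7 gained one and 4 turned direction. Those that turned were uncalled: *Bdh1* (1374765_at, -0.020) and the second *Acat1* probe set (-0.34) under median scaling, this *Acat1* probe set also under cyclic loess (-0.025), and *Oxct1* under quantile scaling (0.070). Of 331 checks of the named pathway and marker genes, 45 lost the call, and 3 turned direction, these 3 under median scaling (*Fabp5* -0.021, *Gja1* -0.041, *Eno2* -0.056).

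Over all 15521 probe sets tested, 2246 were higher and 1712 lower. Median scaling gave 1017 and 5057, so that 16.7% of calls were higher in place of 56.7%. Without a filter 4943 of 31042 were higher, with the filter at the 75th percentile 1295 of 7761, and without the intensity trend 1006 were lower. Leaving out a CR array gave 1958 to 2260 higher and 1497 to 1824 lower. Members called higher numbered 2, but 1 under median scaling and 1 without the trend, and 2 to 3 with an array left out. Members called lower numbered 2, but 7 under median scaling, and 2 to 3 with an array left out. Of the 57 pathway genes tested, 6 were higher and 9 lower (10.5 and 15.8%), and of all named genes 11.6 and 11.3%. Under median scaling 1 was higher and 24 lower, where 6.55% of all probe sets were higher and 32.6% lower. Without the trend 2 were higher and 4 lower, where 11.2 and 6.48% of all probe sets were. Without a filter 10 of the 68 on the array were higher. Under quantile scaling 5 were lower, where 8.45% of all probe sets were. With an array left out 4 to 6 were higher and 6 to 9 lower. No test set these shares against each other. At 2-fold, 1 member probe set was higher at 10%, 0 at 20%, and 1 lower at 30%, in place of 3, 2 and 3 at 1.5-fold. The slope over CR level passed at 0 probe sets by limma in every alternative run, with 366 to 1470 at an unadjusted p under 0.05. No paired analysis was possible because each group has 1 array and the labels carry no replicate numbers. The cause of these dependences was not tested.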

Other observations

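Some regulators that were not called between CR and control had a slope over the CR levels before adjustment. Of the 10 regulators tested, 4 had a slope with an unadjusted p under 0.05, against 4.79% of all probe sets, and none passed adjustment. They were named after their values were seen. *Pdk4*, a kinase that shuts off pyruvate dehydrogenase when fat is used, had signals of 92.4, 122.3, 152.1 and 191.9 at 5, 10, 20 and 30% CR and 122.6 in the control, a slope of 0.40 log2 units per 10 percentage points (adjusted p = 0.999 by limma). The 4 CR values were ordered by restriction, and the control lay at the level of the 10% array. A second, dim *Pdk4* probe set had 67.7, 10.5, 24.3 and 33.2 in CR and 36.3 in the control and showed no such order. *Esrra* (0.36), the estrogen-related receptor of mitochondrial genes, and *Mlycd* (0.27), malonyl-CoA decarboxylase, also had positive slopes, and *Ppargc1b* (-0.27) a negative one. *Ppargc1b* was above control on all 4 CR arrays, at 107.1 to 166.9 in CR and 78.1 in the control (0.86, interval 0.19 to 1.53, adjusted p = 0.0603).

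Pairs of probe sets of a gene also parted outside the members. *Acsl5*, an acyl-CoA synthetase, had 227.4, 255.7, 211.1 and 180.4 in CR and 171.9 in the control by its brighter probe set, which was not called (0.34, adjusted p = 0.304), and 190.5, 230.5, 280.2 and 191.4 in CR and 62 in the control by the other, which was (adjusted p = 0.00118). *Scp2*, a peroxisomal thiolase and lipid carrier, had 2611, 2552, 2260 and 2332 in CR and 2572 in the control by its brighter probe set (-0.08, not called). The other had 721.9, 663.5, 612.5 and 715 in CR and 1400 in the control and was lower (adjusted p = 8.2e-04). For these genes the size of the difference and the call depend on which probe set is read.

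Several genes of the pathway with higher deposited signals in CR were too dim for the filter. *Acox2*, a peroxisomal oxidase, had 44.2 to 68.4 in CR and 10 in the control, *Ucp3* had 32.8 to 146.2 in CR and 5.6 in the control, and *Rxra*, the partner of the PPAR receptors, had 8.7 to 35 in CR and 2.6 in the control. With no filter their adjusted p values by limma were 0.0142, 0.0094 and 0.0846, but they were picked for being higher in CR. A second, dim *Ucp3* probe set had 20.1 to 42.1 in CR and 17.9 in the control and was not called with no filter. Other pathway genes too dim for the filter were lower on average. *Acadsb*, of mitochondrial beta-oxidation, had 3.3 to 7.9 in CR and 15.1 in the control (-1.37), and *Cd36* and *Acacb* had differences of -0.57 and -0.35. None of these was called with no filter (adjusted p = 0.319, 0.682 and 0.841 by limma). Of all 31042 probe sets, 4943 were called higher with no filter. The control array had the largest share of signals under 10.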
